A study of Mus musculus with 8 samples.

Results

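A set of 10 miRs that are textbook markers of nerve, liver or epithelium were followed through small RNA libraries of extracellular vesicles (EVs) released by mouse skeletal muscle. They were chosen by name for the tissues they mark, not by their values, and are 10 of the 1755 miRs in the count table. The groups were OXI-EV, from soleus and red gastrocnemius (oxidative muscle), and GLY-EV, from quadriceps (glycolytic muscle), with 4 libraries each. All donors were male C57BL/6J mice without a genetic change or treatment, bought at 10 to 12 weeks of age, and each preparation came from the muscle of 1 leg of 1 animal. Teased muscle was kept for 24 h in medium without serum, so the EVs came from pieces of whole muscle and not from purified fibers.

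The first 4 miRs are known for nerve tissue. miR-9-5p acts in neural progenitors, miR-124-3p is the classic neuron miR, and miR-128-3p and miR-137-3p are enriched in brain. miR-122-5p is the dominant miR of hepatocytes. miR-192-5p and miR-194-5p are made from shared clusters in gut, kidney and liver. miR-200a-3p and miR-200b-3p keep the epithelial state by repressing Zeb transcription factors, and miR-375-3p belongs to pancreatic islets and other endocrine cells. None of these miRs is strictly limited to the tissue it marks, and several are known at lower levels in many cells, muscle included. A count in vesicles from a mixed tissue does not name its source, and fewer vesicles with a miR cannot be told apart from fewer copies in each vesicle.

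The mature sequences of 7 of the 10 were taken from RefSeq (GRCm38.p6) and are shown because the seed, bases 2 to 8 in capitals, is the part that pairs with target mRNAs and groups miRs into families. They are written 5′ to 3′.
miR-9-5p: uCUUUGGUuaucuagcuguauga
miR-128-3p: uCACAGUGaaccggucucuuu
miR-137-3p: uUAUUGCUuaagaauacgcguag
miR-192-5p: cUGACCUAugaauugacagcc
miR-194-5p: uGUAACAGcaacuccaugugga
miR-200a-3p: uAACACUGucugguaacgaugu
miR-200b-3p: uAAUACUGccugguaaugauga
The other 3 are miR-124-3p, miR-122-5p and miR-375-3p. No pair of the 7 had the same seed. miR-200a-3p and miR-200b-3p differ within the seed, AACACUG against AAUACUG. miR-192-5p shares its seed with miR-215-5p, miR-200a-3p shares its seed with miR-141-3p, and miR-200b-3p shares its seed with miR-200c-3p and miR-429-3p. All 4 partners had mean counts of 12.2 to 23.1 per library, where the median of all miRs was 22.9. Against the 50 most abundant miRs with a sequence, the longest common run was 8 bases (ucacagug), in miR-128-3p and miR-27b-3p, and the other 6 miRs shared at most 5 or 6 bases with any of them.

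The hairpins of these 7 lie on chromosomes 1, 3, 4, 7, 9, 13 and 19 of GRCm38.p6 (GENCODE M21). Mir128-1 lies in an intron of R3hdm1 (chr1:128202361-128202430) and Mir128-2 in an intron of Arpp21 (chr9:112118636-112118711). Mir9-1 (chr3:88215598-88215686) and Mir9-3 (chr7:79505264-79505353) lie in introns of the noncoding genes Gm3764 and Mir9-3hg, and Mir9-2 (chr13:83738814-83738885) in an exon of the noncoding gene C130071C03Rik. Mir137 overlaps an exon of the noncoding transcript Gm26871 (chr3:118433857-118433929). Mir200a (chr4:156054896-156054985) and Mir200b (chr4:156055681-156055750) lie side by side in introns of Ttll10. Mir194-2 (chr19:6264643-6264728) and Mir192 (chr19:6264844-6264932) are neighbors with no other gene on their strand, and a second copy, Mir194-1 (chr1:185313319-185313385), lies in an intron of the antisense transcript 2010103J01Rik.

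Mapped reads ranged between 4151145 and 4867396 in OXI-EV libraries, and between 5179262 and 7197716 in GLY-EV libraries. Counts assigned to miRs summed to 348730 to 572106 in OXI-EV, against 587068 to 1004011 in GLY-EV libraries. No library was a copy of another. Levels are given as counts, as counts per 1000000 mapped reads (CPM), and as multiples of the count of the median miR of the same library, which was 13 to 26 in OXI-EV, against 13 to 28 in GLY-EV. Mature miRs are close to one another in length, so counts of different miRs within a library were compared without a length correction. Whether all miRs were captured equally well was not tested, so ranks and ratios between miRs describe counts only.

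The set spanned the range between absence and moderate abundance. A place above the median miR does not tell whether a miR was background, which was not tested. Over the 8 libraries, 8 of the 10 had a mean count above the table's median of 22.9, and 7 were above its upper quartile of 40.6. Both tallies include miR-9-5p, whose mean was 17.4 counts in the 7 libraries other than OXI-EV replicate 4; over those 7 libraries, 7 of the 10 lay above the median of 21.1 and 6 above the upper quartile of 37.7. miR-128-3p (mean count 310.5, with 54 miRs above it), miR-192-5p (191.9, 79 above it) and miR-194-5p (101.1, 129 above it) reached a mean of 100 counts, as did 130 of all 1755 miRs. Over all 8 libraries miR-9-5p averaged 99.1, miR-200a-3p 77.4, miR-137-3p 61.8, miR-200b-3p 47.5 and miR-375-3p 30.4 counts. Below the median miR lay miR-122-5p, with a mean count of 18.9, and miR-124-3p, with 11.8.

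Against the miRs of muscle itself all 10 were scarce. miR-1a-3p, the main miR of heart and skeletal muscle fibers, had 88028 to 113291 counts in OXI-EV libraries, against 318672 to 526426 in GLY-EV libraries. The summed count of the 10 was 307, 817, 490 and 1793 in OXI-EV replicates 1 to 4, against 1206, 874, 539 and 1576 in GLY-EV replicates 1 to 4. This was 0.186 ± 0.0985% of miR counts in OXI-EV, against 0.128 ± 0.0307% in GLY-EV (SD, n = 4 each), a ratio of 1.46 whose ranges overlapped. In CPM the sums were 185 ± 133 in OXI-EV, against 174 ± 93.2 in GLY-EV (SD, n = 4 each). For each count of the set there were 63.2 to 287 counts of miR-1a-3p in OXI-EV libraries, against 334 to 591 in GLY-EV libraries. That gap did not overlap, while miR-1a-3p itself was lower in OXI-EV (log2 fold change −1.69 ± 0.180, SE, adjusted p = 0.000261, edgeR quasi-likelihood test). The most counted of the 10 was miR-192-5p in OXI-EV replicates 1 to 3, miR-9-5p in OXI-EV replicate 4 and miR-128-3p in every GLY-EV library.

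**Figure D1:**
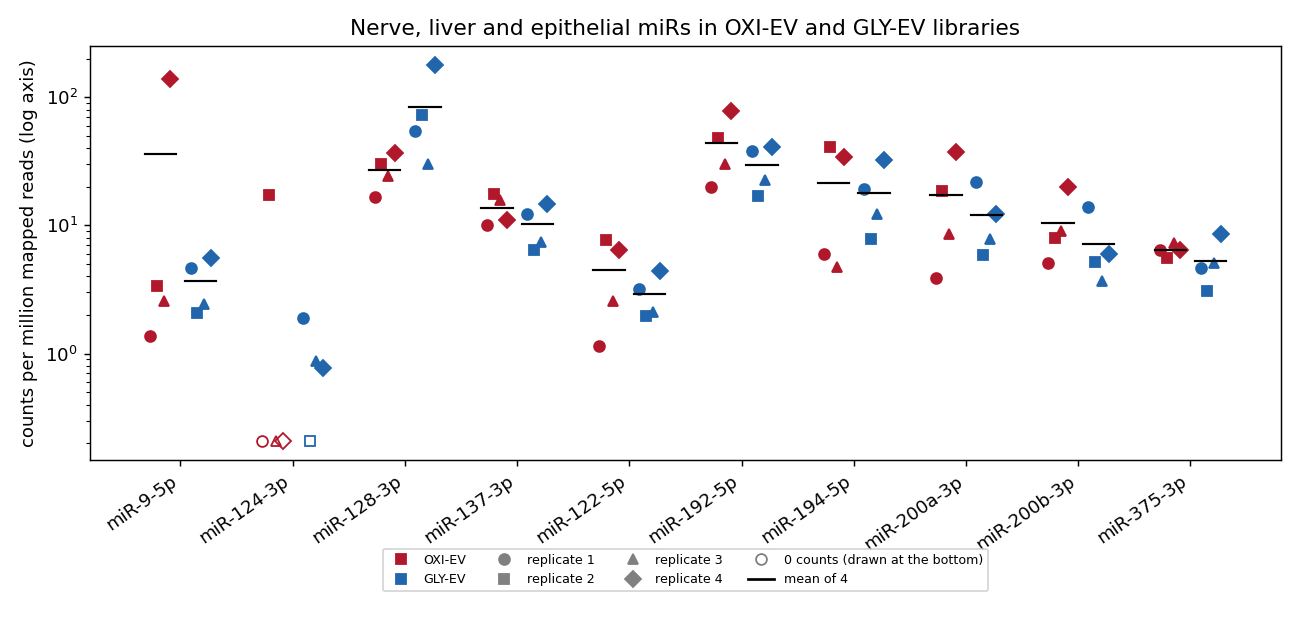
CPM (log axis) of each of the 10 miRs in each library, OXI-EV in red and GLY-EV in blue, with a marker shape per replicate; black lines are means of 4 libraries and open markers at the bottom are libraries with 0 counts. The groups overlap for every miR, miR-9-5p in OXI-EV replicate 4 (138 CPM) and miR-124-3p in OXI-EV replicate 2 (17.3 CPM) stand far above the other libraries, and miR-128-3p is highest in GLY-EV replicate 4 (179 CPM).

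Whether OXI-EV and GLY-EV differed in these miRs was tested in a fit over all miRs that reached 10 counts in 4 or more libraries. Of the 10, 9 were among the 1569 miRs tested, and miR-124-3p was not. None of the 9 passed an adjusted p of 0.05 in the edgeR quasi-likelihood test scaled to mapped reads, beside 1.85% of all tested miRs (1 higher and 28 lower in OXI-EV). Before adjustment, 2 of the 9 had a p under 0.05, miR-128-3p and miR-9-5p, beside 14.5% of all tested miRs. Not 1 of the 9 had CPM ranges that did not overlap between the groups, beside 8.22% of tested miRs. With so low a background count, no call among 9 miRs is no measure of how they differ from other miRs. The median log2 fold change (OXI-EV minus GLY-EV) was 0.51 for the 9 and 0.48 for all tested miRs, and 7 of the 9 lay within 0.5 of the median of all tested miRs, as did 55.4% of all tested miRs.

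These shifts depended on the scale. GLY-EV libraries had 1.39 times as many mapped reads as OXI-EV libraries, a log2 ratio of 0.47, while the median miR had a mean of 21 ± 5.94 counts in OXI-EV, against 19.8 ± 6.65 counts in GLY-EV (SD, n = 4 each). With TMM factors, which center the bulk of miRs, the median log2 fold change was 0.02 for the 9 and 0.09 for all tested miRs. With total miR counts as the library size the medians were 0.89 for the 9 and 0.98 for all tested miRs. Of the 1569 tested miRs, 188 were then called higher and 48 lower in OXI-EV, none of them among the 9. Several of the 9 came near the threshold in this edgeR quasi-likelihood test. Their adjusted p was 0.0692 (miR-9-5p), 0.0769 (miR-128-3p), 0.0811 (miR-137-3p), 0.0835 (miR-192-5p) and 0.0995 (miR-375-3p), and 0.119 or more in the rest.

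miR-128-3p was the only 1 of the 9 called under any setting. In mmu-miR-128-3p there were 72, 125, 114 and 179 counts in OXI-EV replicates 1 to 4, against 376, 520, 171 and 927 in GLY-EV replicates 1 to 4. In CPM that was 16.6, 30.1, 24.4 and 36.8 in OXI-EV, against 54.3, 72.2, 30.0 and 179 in GLY-EV. OXI-EV replicates 2 and 4 lay at or above the lowest GLY-EV library, replicate 3, so the CPM ranges overlapped at their edge. The means were 27.0 ± 8.58 CPM in OXI-EV, against 83.9 ± 65.7 CPM in GLY-EV (SD, n = 4 each), and the log2 fold change was −1.64 ± 0.578 (SE, adjusted p = 0.236).

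As multiples of the median miR, miR-128-3p separated the groups, with 5.0 to 6.88 in OXI-EV (mean 5.78 ± 0.794) against 10.7 to 40.0 in GLY-EV (mean 25.2 ± 13.6; SD, n = 4 each). It was the only 1 of the 9 without overlap on this scale, beside 10.6% of all tested miRs. A tally of 1 in 9 is close to that share, so it sets the 9 apart from other miRs in no way. With TMM scaling it was called lower in OXI-EV (log2 fold change −2.02 ± 0.449, SE, adjusted p = 0.0240), beside 5.42% of tested miRs called lower. DESeq2 with mapped reads also called it lower (−1.64, adjusted p = 0.0381), beside 7.19% of the 821 miRs to which DESeq2 gave an adjusted p. Without GLY-EV replicate 4 the edgeR estimate was −0.95 (adjusted p = 0.219).

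Lower values in OXI-EV were common among abundant miRs. Of all tested miRs, 129 averaged 100 counts or more; their log2 fold changes had a median of −1.12, and 40 of them (31.0%) lay lower than miR-128-3p. All 29 called miRs belonged to these 129, whereas the 1440 tested miRs with fewer counts had a median of 0.52 and no call by edgeR. The cut at 100 used mean counts over both groups, and GLY-EV libraries held 1.89 times the miR counts of OXI-EV libraries. A miR high in GLY-EV alone could thus pass the cut, and calls also depend on the number of counts. The 3 tested miRs whose log2(CPM + 1) followed that of miR-128-3p most closely over the 8 libraries were miR-328-3p (Pearson r = 0.981, mean count 528.5), miR-191-5p (r = 0.973, mean count 336.9) and miR-361-5p (r = 0.967, mean count 98.0). These libraries differ in depth and fall into 2 groups, both of which enter such an r, so it is a description only. mmu-miR-27b-3p, with the 8-base run in common, had a log2 fold change of −1.83, the same sign as miR-128-3p; whether reads were shared between them was not tested.

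**Figure D2:**
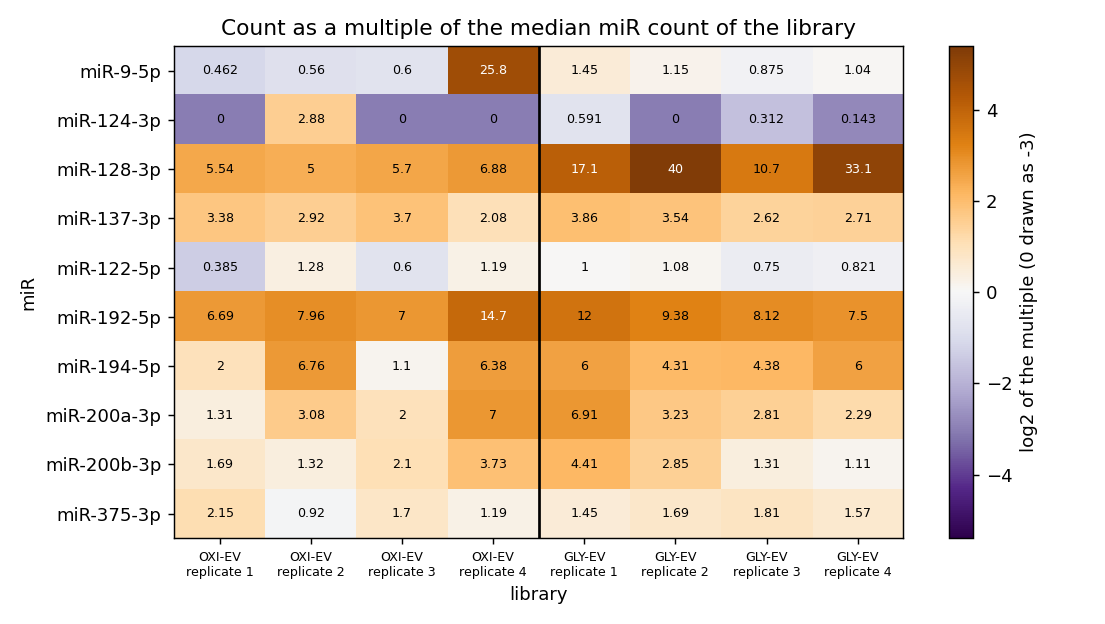
Count of each of the 10 miRs (rows) in each library (columns, OXI-EV left and GLY-EV right of the line) as a multiple of the count of the median miR in that library, colored by its log2 value. miR-128-3p lies at 5.0 to 6.88 in OXI-EV, against 10.7 to 40.0 in GLY-EV, miR-137-3p stays between 2.08 and 3.86 throughout, and miR-9-5p reaches 25.8 in 1 library.

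The other nerve miRs were set by single libraries or were flat. mmu-miR-9-5p had 6, 14, 12 and 671 counts in OXI-EV replicates 1 to 4, against 32, 15, 14 and 29 in GLY-EV replicates 1 to 4. Replicate 4 of OXI-EV held 47.9 times the median of the other 7 libraries, while the other 3 OXI-EV libraries lay below or within the GLY-EV range. The log2 fold change was 3.30 ± 1.27 (SE, adjusted p = 0.271) and turned to −0.59 ± 0.624 without that library (SE, adjusted p = 0.828), so the higher OXI-EV mean, 36.3 ± 67.7 CPM against 3.69 ± 1.70 CPM in GLY-EV (SD, n = 4 each), rested on it. Without OXI-EV replicate 4, miR-9-5p was at 0.462 to 0.600 of the median miR in OXI-EV, against 0.875 to 1.45 in GLY-EV. In CPM the same libraries overlapped, at 1.38 to 3.37 in OXI-EV, against 2.08 to 5.60 in GLY-EV. How many of all tested miRs separate as multiples with that library left out was not counted.

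mmu-miR-124-3p, the neuron miR, had 0, 72, 0 and 0 counts in OXI-EV replicates 1 to 4, against 13, 0, 5 and 4 in GLY-EV replicates 1 to 4. A count of 0 allows up to 3 counts, which is 0.616 to 0.690 CPM in the 3 OXI-EV libraries and 0.417 CPM in GLY-EV replicate 2, counting error only. miR-124-3p thus had 0 to 13 counts in 7 libraries, and stood apart in OXI-EV replicate 2, where 85.1% of miRs had a lower count. It had no test beside the others, and in the fit without a count filter its log2 fold change was 2.26 (adjusted p = 0.563).

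mmu-miR-137-3p was the steadiest nerve miR, with 44, 73, 74 and 54 counts in OXI-EV replicates 1 to 4, against 85, 46, 42 and 76 in GLY-EV replicates 1 to 4. It averaged 13.7 ± 3.62 CPM in OXI-EV, against 10.2 ± 3.96 CPM in GLY-EV (SD, n = 4 each; log2 fold change 0.42 ± 0.474, SE, adjusted p = 0.690). Its coefficient of variation over the 8 libraries was 33.3% in CPM and 19.9% in multiples of the median miR, and 2.80% of tested miRs varied less on the second scale. In all 8 libraries miR-137-3p thus kept a place at 2.08 to 3.86 times the median miR, below miR-128-3p and miR-192-5p.

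The liver, gut and kidney miRs ranked in the order miR-192-5p, miR-194-5p, miR-122-5p by mean level in both groups. mmu-miR-192-5p had 87, 199, 140 and 382 counts in OXI-EV replicates 1 to 4, against 265, 122, 130 and 210 in GLY-EV replicates 1 to 4. It averaged 44.1 ± 25.7 CPM in OXI-EV, against 29.6 ± 11.6 CPM in GLY-EV (SD, n = 4 each; log2 fold change 0.57 ± 0.537, SE, adjusted p = 0.626), and the log2 fold change was 0.14 without OXI-EV replicate 4. The groups overlapped, and in each of the 8 libraries miR-192-5p lay above at least 94.1% of miRs, at 6.69 to 14.7 times the median miR.

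mmu-miR-194-5p, its cluster partner, had 26, 169, 22 and 166 counts in OXI-EV replicates 1 to 4, against 132, 56, 70 and 168 in GLY-EV replicates 1 to 4. Within OXI-EV, replicates 2 and 4 were far above replicates 1 and 3. The mean was 21.4 ± 18.7 CPM in OXI-EV, against 17.9 ± 10.8 CPM in GLY-EV (SD, n = 4 each; log2 fold change 0.26 ± 0.730, SE, adjusted p = 0.876), and the sign turned with TMM scaling and without OXI-EV replicate 2 or 4. miR-192-5p exceeded miR-194-5p in all 8 libraries, by 1.18 to 6.36 times in OXI-EV, against 1.25 to 2.18 times in GLY-EV.

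mmu-miR-122-5p, the hepatocyte miR, had 5, 32, 12 and 31 counts in OXI-EV replicates 1 to 4, against 22, 14, 12 and 23 in GLY-EV replicates 1 to 4. It averaged 4.45 ± 3.09 CPM in OXI-EV, against 2.92 ± 1.15 CPM in GLY-EV (SD, n = 4 each; log2 fold change 0.61 ± 0.605, SE, adjusted p = 0.648). The level was that of an ordinary miR of the table, 0.385 to 1.28 times the median one, in both groups.

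Of the epithelial pair, mmu-miR-200a-3p had 17, 77, 40 and 182 counts in OXI-EV replicates 1 to 4, against 152, 42, 45 and 64 in GLY-EV replicates 1 to 4. Its neighbor mmu-miR-200b-3p had 22, 33, 42 and 97 counts in OXI-EV replicates 1 to 4, against 97, 37, 21 and 31 in GLY-EV replicates 1 to 4. Both were highest in OXI-EV replicate 4 and GLY-EV replicate 1 of their groups, and the groups overlapped. miR-200a-3p averaged 17.1 ± 14.8 CPM in OXI-EV, against 12.0 ± 7.17 CPM in GLY-EV (SD, n = 4 each; log2 fold change 0.51 ± 0.682, SE, adjusted p = 0.745), and its sign turned with TMM scaling and without OXI-EV replicate 4. miR-200b-3p averaged 10.5 ± 6.51 CPM in OXI-EV, against 7.20 ± 4.64 CPM in GLY-EV (SD, n = 4 each; log2 fold change 0.54 ± 0.585, SE, adjusted p = 0.677), and the log2 fold change was 0.02 without OXI-EV replicate 4 and 1.09 without GLY-EV replicate 1. The ratio of miR-200a-3p to miR-200b-3p was 0.773 to 2.33 in OXI-EV, against 1.14 to 2.14 in GLY-EV libraries.

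mmu-miR-375-3p, the endocrine miR, had 28, 23, 34 and 31 counts in OXI-EV replicates 1 to 4, against 32, 22, 29 and 44 in GLY-EV replicates 1 to 4. It averaged 6.41 ± 0.710 CPM in OXI-EV, against 5.31 ± 2.29 CPM in GLY-EV (SD, n = 4 each; log2 fold change 0.27 ± 0.466, SE, adjusted p = 0.795), with a sign that turned under TMM scaling. In CPM the coefficient of variation was 11.1% in OXI-EV, against 43.1% in GLY-EV. As multiples of the median miR the order was reversed, with 36.7% in OXI-EV, against 9.45% in GLY-EV. Which group was more even thus depended on the scale. In OXI-EV its chi-square per degree of freedom against equal shares of mapped reads was 0.346, where counting error alone gives 1 if each count is 1 molecule, while the other 9 ranged between 4.24 (miR-137-3p) and 558 (miR-9-5p). Of the 10, miR-375-3p in OXI-EV was the only 1 within counting error on this measure; in GLY-EV the 10 ranged between 2.69 and 293.

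**Figure D3:**
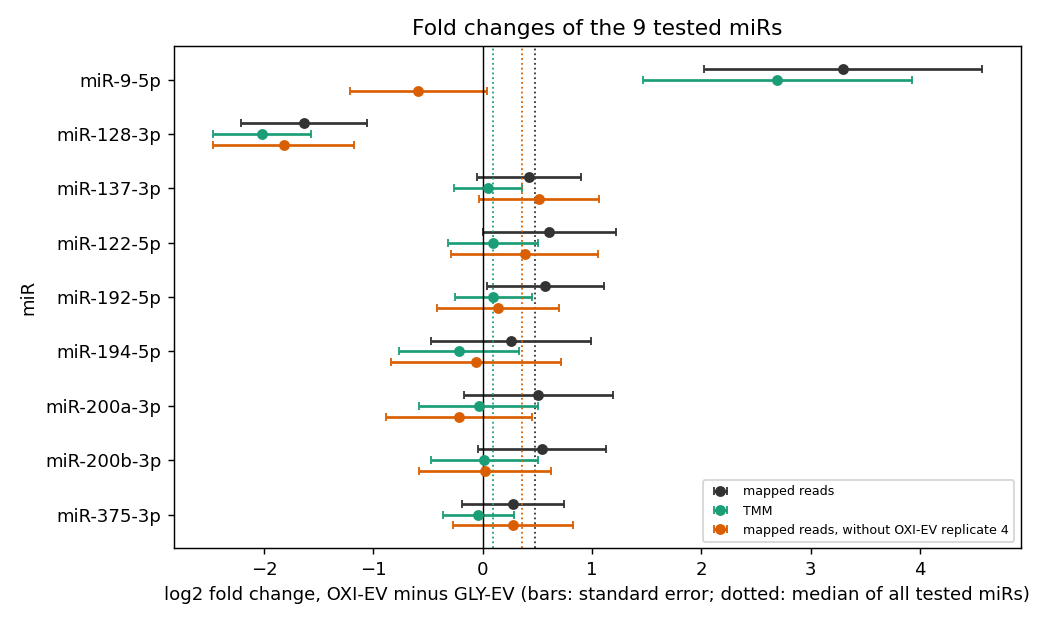
Log2 fold change, OXI-EV minus GLY-EV, of the 9 tested miRs with standard errors, scaled to mapped reads (dark grey), with TMM factors (green), and to mapped reads without OXI-EV replicate 4 (orange); dotted lines are the medians of all tested miRs in each fit. The bars of 7 miRs reach the dotted line of their fit, miR-128-3p lies below 0 in all 3 fits, and miR-9-5p moves to −0.59 from 3.30 once OXI-EV replicate 4 is left out.

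The highest values of the set fell in 3 libraries. In CPM, 4 of the 10 were highest in OXI-EV replicate 2 (miR-124-3p, miR-137-3p, miR-122-5p and miR-194-5p), 4 in OXI-EV replicate 4 (miR-9-5p, miR-192-5p, miR-200a-3p and miR-200b-3p) and 2 in GLY-EV replicate 4 (miR-128-3p and miR-375-3p). These 3 libraries also had the highest median miR, at 6.02, 5.34 and 5.41 CPM, against 1.81 to 4.28 CPM in the other 5. For all 9 tested miRs the coefficient of variation was lower in multiples of the median miR than in CPM, as it was for 74.8% of all tested miRs. Its median over the 9 was 62.8% in CPM and 45.5% in multiples, beside 59.3% and 49.9% over all tested miRs.

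Whether the counts came from the usual strand of each hairpin was examined by setting each miR beside the other arm of its own hairpin. Summed over 4 libraries, miR-128-3p had 490 counts beside 173 of both its 5p arms in OXI-EV, and 1994 beside 114 in GLY-EV, ratios of 2.83 in OXI-EV, against 17.5 in GLY-EV. miR-192-5p had 6.41 counts for each count of the other arm in OXI-EV, against 9.96 in GLY-EV, miR-194-5p 7.66 in OXI-EV, against 6.98 in GLY-EV, miR-200a-3p 3.85 in OXI-EV, against 4.15 in GLY-EV, and miR-200b-3p 12.9 in OXI-EV, against 6.64 in GLY-EV. With miR-375-3p (2.19 in OXI-EV, against 2.65 in GLY-EV), these were the 6 whose named arm was higher in all 8 libraries. Some ratios rested on single libraries. All 15 counts of miR-200b-5p in OXI-EV were in replicate 2. That library also held 60 counts of miR-128-1-5p and 29 of miR-128-2-5p, out of the 173 of both arms in OXI-EV.

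In the remaining 4 the arms lay close together or crossed. miR-137-3p had 1.55 counts per count of miR-137-5p in OXI-EV, against 2.62 in GLY-EV, and its named arm was higher in 7 of 8 libraries. miR-122-5p had 1.21 per count of miR-122-3p in OXI-EV, against 2.73 in GLY-EV, higher in 6 of 8 libraries. miR-124-3p stood below miR-124-5p, at 0.889 in OXI-EV, against 0.297 in GLY-EV, and was higher in 1 library only, OXI-EV replicate 2. Among muscle miRs the same ratio was 190 in OXI-EV, against 164 in GLY-EV for miR-1a-3p, 43.9 in OXI-EV, against 220 in GLY-EV for miR-133a-3p, and 7631 in OXI-EV, against 2992 in GLY-EV for miR-206-3p. The other arms of the muscle hairpins had mean counts of 1562 (miR-1a-1-5p), 81.9 (miR-133a-5p) and 20.1 (miR-206-5p), beside 5.38 to 31.6 for the other arms of the set.

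miR-9 showed its high library mainly on 1 arm. miR-9-5p had 10.2 counts per count of miR-9-3p in OXI-EV, against 1.34 in GLY-EV. In OXI-EV replicate 4, miR-9-3p had 35 counts beside 671 of miR-9-5p, a ratio of 19.2, and in the other 7 libraries miR-9-3p had 7 to 25 counts. OXI-EV replicate 4 was also the highest library for miR-137-5p (90 counts, against 14 to 29 in the other 7), miR-192-3p (82 counts, against 12 to 21) and miR-124-5p (51 counts, against 8 to 26). The 12 other arms included 8 tested miRs. None was called by edgeR, beside 1.85% of all tested miRs, and none had an unadjusted p under 0.05, beside 14.5%. Their median log2 fold change was 0.81, beside 0.48 for all tested miRs. With 8 miRs, the lack of calls does not set the other arms apart from other miRs.

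**Figure D4:**
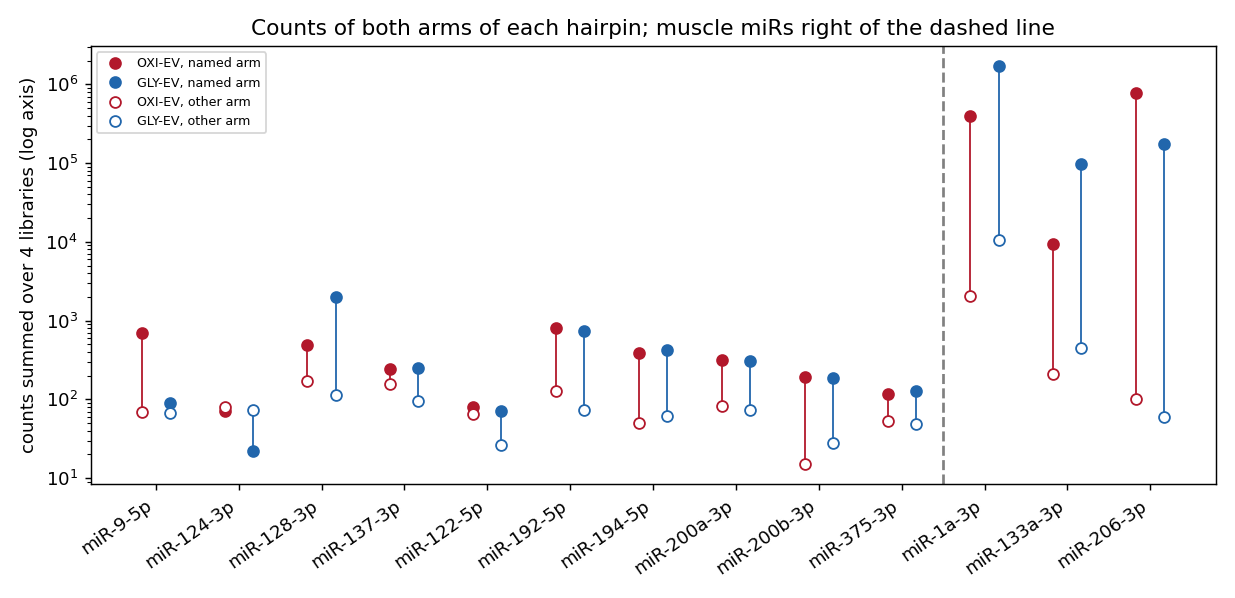
Counts summed over the 4 libraries of each group (log axis) for the named arm (filled) and the other arm or arms (open) of each hairpin, OXI-EV in red left of GLY-EV in blue, with muscle miRs right of the dashed line. The arms of the muscle hairpins lie 43.9 to 7631 times apart, while named over other arm is 0.297 to 17.5 in the set.

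Further miRs known from the same tissues, and from embryonic and germline cells, were read from wider lists, beside the same 14.5% of all tested miRs with an unadjusted p under 0.05 and the same overall median log2 fold change of 0.48. Of 12 further nerve miRs found, 11 were tested, and none was called by edgeR (1 had an unadjusted p under 0.05; median log2 fold change 0.29). Their most counted members were miR-138-5p, a regulator of dendritic spines in neurons, and miR-212-3p, an activity-dependent neuronal miR. miR-138-5p had 213, 88, 31 and 378 counts in OXI-EV replicates 1 to 4, against 76, 30, 20 and 55 in GLY-EV replicates 1 to 4 (log2 fold change 2.40 ± 0.734, SE, adjusted p = 0.174), with OXI-EV replicate 3 inside the GLY-EV range of counts. miR-212-3p averaged 13.7 ± 3.40 CPM in OXI-EV, against 11.1 ± 7.60 CPM in GLY-EV (SD, n = 4 each; adjusted p = 0.793).

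The 3 further liver, gut and kidney miRs had mean counts of 12.2 to 44.2 and none was called or had an unadjusted p under 0.05; the most counted were miR-204-5p, of kidney and retina, and miR-802-5p, of liver (mean count 26.5). Of 10 tested epithelial and endocrine miRs none was called (2 had an unadjusted p under 0.05; median log2 fold change 0.77). Among them, miR-203-3p, a miR of epidermis, had 407, 137, 179 and 272 counts in OXI-EV replicates 1 to 4, against 186, 107, 88 and 170 in GLY-EV replicates 1 to 4 (log2 fold change 1.29 ± 0.511, SE, adjusted p = 0.275), and miR-217-5p, of the pancreas, had 76, 107, 100 and 97 counts in OXI-EV replicates 1 to 4, against 64, 113, 94 and 86 in GLY-EV replicates 1 to 4. In CPM the groups overlapped for neither, beside 8.22% of tested miRs without overlap: miR-203-3p was at 33.0 to 93.6 CPM in OXI-EV, against 14.9 to 32.8 CPM in GLY-EV, and miR-217-5p was at 17.5 to 25.8 CPM in OXI-EV, against 9.25 to 16.6 CPM in GLY-EV. The counts themselves overlapped for both.

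The embryonic and germline miRs overlapped the set in their mean counts. All 14 in the table were tested and none was called (2 had an unadjusted p under 0.05; median log2 fold change 0.81), with mean counts of 10.4 to 63.2. miR-294-3p, of embryonic stem cells, had 33, 51, 47 and 94 counts in OXI-EV replicates 1 to 4, against 187, 26, 23 and 45 in GLY-EV replicates 1 to 4. miR-302d-3p, of the same cells, had 16, 23, 17 and 249 counts in OXI-EV replicates 1 to 4, against 45, 25, 12 and 37 in GLY-EV replicates 1 to 4. Single libraries thus stood high in this list too, OXI-EV replicate 4 for miR-302d-3p and GLY-EV replicate 1 for miR-294-3p. Mean counts above the table's median were reached by 8 of the 10, by 5 of 12 further nerve, 2 of 3 further liver, gut and kidney, 5 of 11 further epithelial and endocrine, and 4 of 14 embryonic and germline miRs. The 8 include miR-9-5p, whose place above the median rested on OXI-EV replicate 4. A mean above 100 was reached by 3 of the 10, miR-128-3p, miR-192-5p and miR-194-5p. In the wider lists miR-203-3p (193) and miR-138-5p (111) also reached it.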

How the data were processed

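The members and lists were chosen with earlier results of these data known. Small RNA was sequenced with a kit that adds unique molecular identifiers. The authors deposited whole-number counts per miR and library; cutadapt, STAR and GRCm38 are named in the submitters' processing notes, while tool versions are not given in the sources used. The authors' log2 fold changes and p-values in the deposited table come from their own comparison and were not used. Mapped reads came from the deposited table of read numbers. Counts were taken to be molecules because each library had 2.63 to 4.94 miR reads per count; the sources used do not state the counting step, and counting intervals rest on it. CPM thus divides counts by reads, and precision rests on counts per miR. edgeR 4.0.16 (quasi-likelihood, R 4.3.3) was run over all miRs reaching 10 counts in 4 libraries, with Benjamini-Hochberg adjustment and a threshold of 0.05; the SE was the log2 fold change over the square root of F. It was tested on simulated data. DESeq2 1.42.0 was an alternative. Each library was 1 preparation, so p-values measure the spread between preparations. Named miRs were the 10, their other arms, the most counted pair of each wider list, 3 muscle miRs and the 3 closest to miR-128-3p. Figures used matplotlib 3.10.9.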

Additional observations from a re-analysis of the deposited data

Results flagged for a closer look

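miR-9-5p had 671 counts in OXI-EV replicate 4, far from the 6 to 14 counts of the other OXI-EV libraries. Among the 1569 tested miRs, 12 had a highest library at least as far above the median of the other 7, and 81 (5.16%) had a library at least 10 times that median; OXI-EV replicate 4 was the high one for 34 of these 81 and OXI-EV replicate 2 for 22. miR-124-3p had 72 counts in OXI-EV replicate 2 and 0 in the other 3 OXI-EV libraries. By another measure, the gap between the extreme library and its nearest neighbor over the range of the 4 libraries of a group, 2 of 20 groups over the 10 miRs stood out, beside 12.1% of the groups over all tested miRs; chance gives about 1 in 20 groups. By this gap measure, 355 groups of tested miRs stood out through a high library. That library was GLY-EV replicate 4 in 154 groups, OXI-EV replicate 2 in 88 and OXI-EV replicate 4 in 68. The measures thus differed in which library was high most often. The part of the single libraries in these values was not tested further.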

How the results depend on the processing

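Over all miRs, 29 were called at mapped reads, against 86 with TMM scaling, 86 with DESeq2 size factors, 236 with total miR counts as library size, 58 with at least 10 counts in all 8 libraries and 86 with DESeq2 itself; leaving out 1 library gave 10 to 29 calls. Of the 9 tested members 0 were called, against 1 with TMM scaling, 1 with DESeq2 size factors and 1 with DESeq2, each time miR-128-3p (log2 fold change −2.02, −1.98 and −1.64); leaving out any 1 library gave 0 calls. DESeq2 gave miR-9-5p and miR-122-5p no adjusted p. Of 142 alternative values of the 9 miRs, 125 kept direction and call and 14 changed sign, none of the 14 called. The 125 include the DESeq2 values of miR-9-5p and miR-122-5p, which without an adjusted p were taken as not called. With TMM scaling miR-194-5p was at −0.21, miR-200a-3p at −0.036 and miR-375-3p at −0.040, and with DESeq2 size factors at −0.17, −0.0091 and −0.020. Leaving out 1 library gave −0.59 to 3.70 for miR-9-5p, −0.26 to 0.71 for miR-194-5p and −0.22 to 0.98 for miR-200a-3p, all 3 below 0 without OXI-EV replicate 4 and miR-194-5p also without OXI-EV replicate 2; the others ranged over 0.02 to 1.09 (miR-200b-3p), 0.14 to 0.81 (miR-192-5p), 0.22 to 0.93 (miR-122-5p), 0.26 to 0.65 (miR-137-3p), 0.082 to 0.59 (miR-375-3p) and −1.92 to −0.95 (miR-128-3p). The median of the 9 was 0.02 to 0.77 and the ratio of summed shares 1.12 to 1.72 when 1 library was left out. That ratio was 1.07 with mapped reads as denominator and 1.93 with both miR-1a-3p and miR-206-3p taken out of the total. The cause of these shifts was not tested.

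Whether OXI-EV and GLY-EV libraries came in pairs from the same animals is not stated. The paper used paired tests for vesicle release from the muscle types. Correlations of same-numbered libraries, taken on deviations from group means, were 0.14, −0.08, −0.06 and 0.03. With so few libraries these cannot tell whether animals were shared. Preparation numbers were 1, 3, 4 and 5 in OXI-EV, against 1, 2, 4 and 5 in GLY-EV, so not every preparation had a partner. With the replicate number as a block 42 miRs were called and miR-194-5p was at −0.21; with the preparation number as a block 32 were called, and miR-122-5p was at −0.13, miR-194-5p at −0.97 and miR-200a-3p at −0.16. No member was called with either block. Levels under about 10 counts, as for miR-124-3p and miR-122-5p in some libraries, are limited by counting error.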
